A study of Homo sapiens with 18 samples.

Results

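The genes of the circadian clock were followed in A549 cells, a human lung adenocarcinoma epithelial line, after exposure to Ludox silica nanoparticles (NPs). The 10 genes were PER1, PER2, PER3, CRY1, CRY2, CLOCK, ARNTL, NR1D1, NR1D2 and DBP, taken by the gene name that the scanner files give to each probe. They had 21 of the 41000 distinct probes of the array, and 18 of the 21 were kept after the filter on dim signals, with at least 1 probe kept for each of the 10 genes. Gene expression was measured on 18 one-colour arrays, in 6 groups of 3 replicates lettered A, B and C. One treated group was exposed for 2 h to SM30 NPs, labelled as 9 nm in diameter, and was collected after 3 h of recovery. The other treated groups were exposed for 2 h to AS30 NPs, labelled as 18 nm, and were collected after 3 h or 22 h of recovery. Each treated group had its own controls, which went through the same steps without NPs. All 6 groups, controls included, spent 2 h in medium without serum and then the 3 h or 22 h in complete medium with fetal calf serum, so the time comparison also follows the return of serum, and the effects of time and of serum cannot be told apart. The arrays are bulk measurements of a dividing culture with 2 time points, and fewer cells expressing a gene and less RNA per cell cannot be told apart.

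The mammalian clock is a transcriptional loop that most cells carry, lung epithelium included. CLOCK and ARNTL (also called BMAL1) form an activator that binds E-box elements and drives the PER and CRY genes, whose proteins return to the nucleus and repress it. NR1D1 and NR1D2 (REV-ERB alpha and beta) are nuclear receptors that repress ARNTL, and DBP is an output transcription factor that binds D-box elements. PER1 is also an immediate-early gene that responds to serum, cyclic AMP and glucocorticoids, and a change of serum is a standard way to set the phase of cultured cells.

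The 250 bases before the annotated start of PER1, PER3, DBP and ARNTL are shown because these are the members with a called change between groups that were exposed or collected differently. They are written 5′ to 3′ on the gene's strand from RefSeq, build GRCh38.p14, using the first listed start where a gene has several. Capitals mark the E-box CACGTG, the related E-prime box CACGTT, the D-box TTATGTAA and the nuclear receptor half-site AGGTCA, each on either strand.
PER1 (chr17:8152405-8152654, minus strand): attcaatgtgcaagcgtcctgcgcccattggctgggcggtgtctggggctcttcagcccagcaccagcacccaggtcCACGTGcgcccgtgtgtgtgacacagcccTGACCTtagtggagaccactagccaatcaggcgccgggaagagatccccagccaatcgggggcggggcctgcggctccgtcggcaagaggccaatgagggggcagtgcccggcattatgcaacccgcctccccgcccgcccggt
PER3 (chr1:7784041-7784290, plus strand): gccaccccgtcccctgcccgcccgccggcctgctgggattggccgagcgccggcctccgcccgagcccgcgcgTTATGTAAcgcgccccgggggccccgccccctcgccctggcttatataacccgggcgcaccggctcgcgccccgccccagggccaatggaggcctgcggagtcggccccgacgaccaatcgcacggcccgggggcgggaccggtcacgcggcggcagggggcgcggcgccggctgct
DBP (chr19:48637380-48637629, minus strand): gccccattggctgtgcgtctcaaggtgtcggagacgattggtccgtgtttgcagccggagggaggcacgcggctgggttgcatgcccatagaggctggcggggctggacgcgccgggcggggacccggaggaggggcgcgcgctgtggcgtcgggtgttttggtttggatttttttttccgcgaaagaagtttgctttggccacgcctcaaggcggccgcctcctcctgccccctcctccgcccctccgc
ARNTL (chr11:13277540-13277789, plus strand): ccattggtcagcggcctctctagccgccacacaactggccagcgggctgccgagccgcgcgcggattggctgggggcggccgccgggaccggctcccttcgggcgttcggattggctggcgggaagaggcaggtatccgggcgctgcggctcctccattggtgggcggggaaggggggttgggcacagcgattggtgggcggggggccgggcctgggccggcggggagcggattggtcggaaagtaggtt
Within the window from 250 bases before to 50 bases after the start, the PER1 promoter held an E-box with its first base at -173 and a half-site at -144, and the PER3 promoter held a D-box at -177. Among all 35116 promoters of the table, 7.26% held the E-box, 5.34% the E-prime box, 0.886% the D-box and 13.8% the half-site. The printed DBP and ARNTL stretches held none of the 4, and ARNTL held a half-site at 31, after its start. The other sequences searched were the D-box variant TTACGTAA (0.125% of promoters), the cyclic AMP element TGACGTCA (1.85%), its half-site TGACG (24.6%) and the CCAAT box (34.6%). The CCAAT box was found in all 4 promoters shown, and TTACGTAA, TGACGTCA and TGACG in none of them.

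The arrays were spread over 5 slides. The 3 h controls of the AS30 set shared a slide with 1 of the 22 h controls, while the AS30-treated arrays of 3 h and of 22 h each filled a slide with 1 further 22 h control. Between 66.0% and 83.7% of the spots of an array were positive and significant. The epithelial and A549 markers KRT8, KRT18, EPCAM, CDH1, AKR1C1, AKR1B10 and ALDH1A1 were well above background on all 18 arrays. Of markers of other cells, PECAM1 was well above background on 0 arrays, PTPRC on 5, COL1A2 on 7, HBB on 11, and CD3E and CD14 on 18. Of 3 markers of alveolar type II cells, the surfactant gene SFTPC was well above background on 18 arrays, the transcription factor gene NKX2-1 on 17 and the surfactant gene SFTPB on 1. The controls of the SM30 set and of the AS30 set at 3 h, which differ in no labelled treatment, differed at 26.8% of 28620 probes, so levels were compared within a set.

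By the main probes, PER1 was the clock gene with a called change at 22 h against 3 h in both untreated and AS30-treated cells. Its main probe, A_23_P89589 (hg18 chr17:7984992-7985051, minus strand), was well above background on all 18 arrays. In log2 intensity, the AS30-set controls at 3 h read 7.00, 7.37 and 7.72, and those at 22 h read 8.90, 9.02 and 9.42. AS30-treated cells read 7.19, 7.48 and 7.50 at 3 h and 8.82, 9.04 and 8.99 at 22 h. Every 22 h array lay above every 3 h array, with or without NPs. Of the clock gene probes measured on every array of both groups, 3 of 14 did not overlap between times in untreated cells, as 14% of all such probes did not, and 9 of 16 in AS30-treated cells, against 36.1% of all. The SM30-set arrays at 3 h fell in the same low range, at 6.65, 7.70 and 7.63 in controls and 6.88, 7.17 and 6.97 with SM30.

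**Figure D1:**
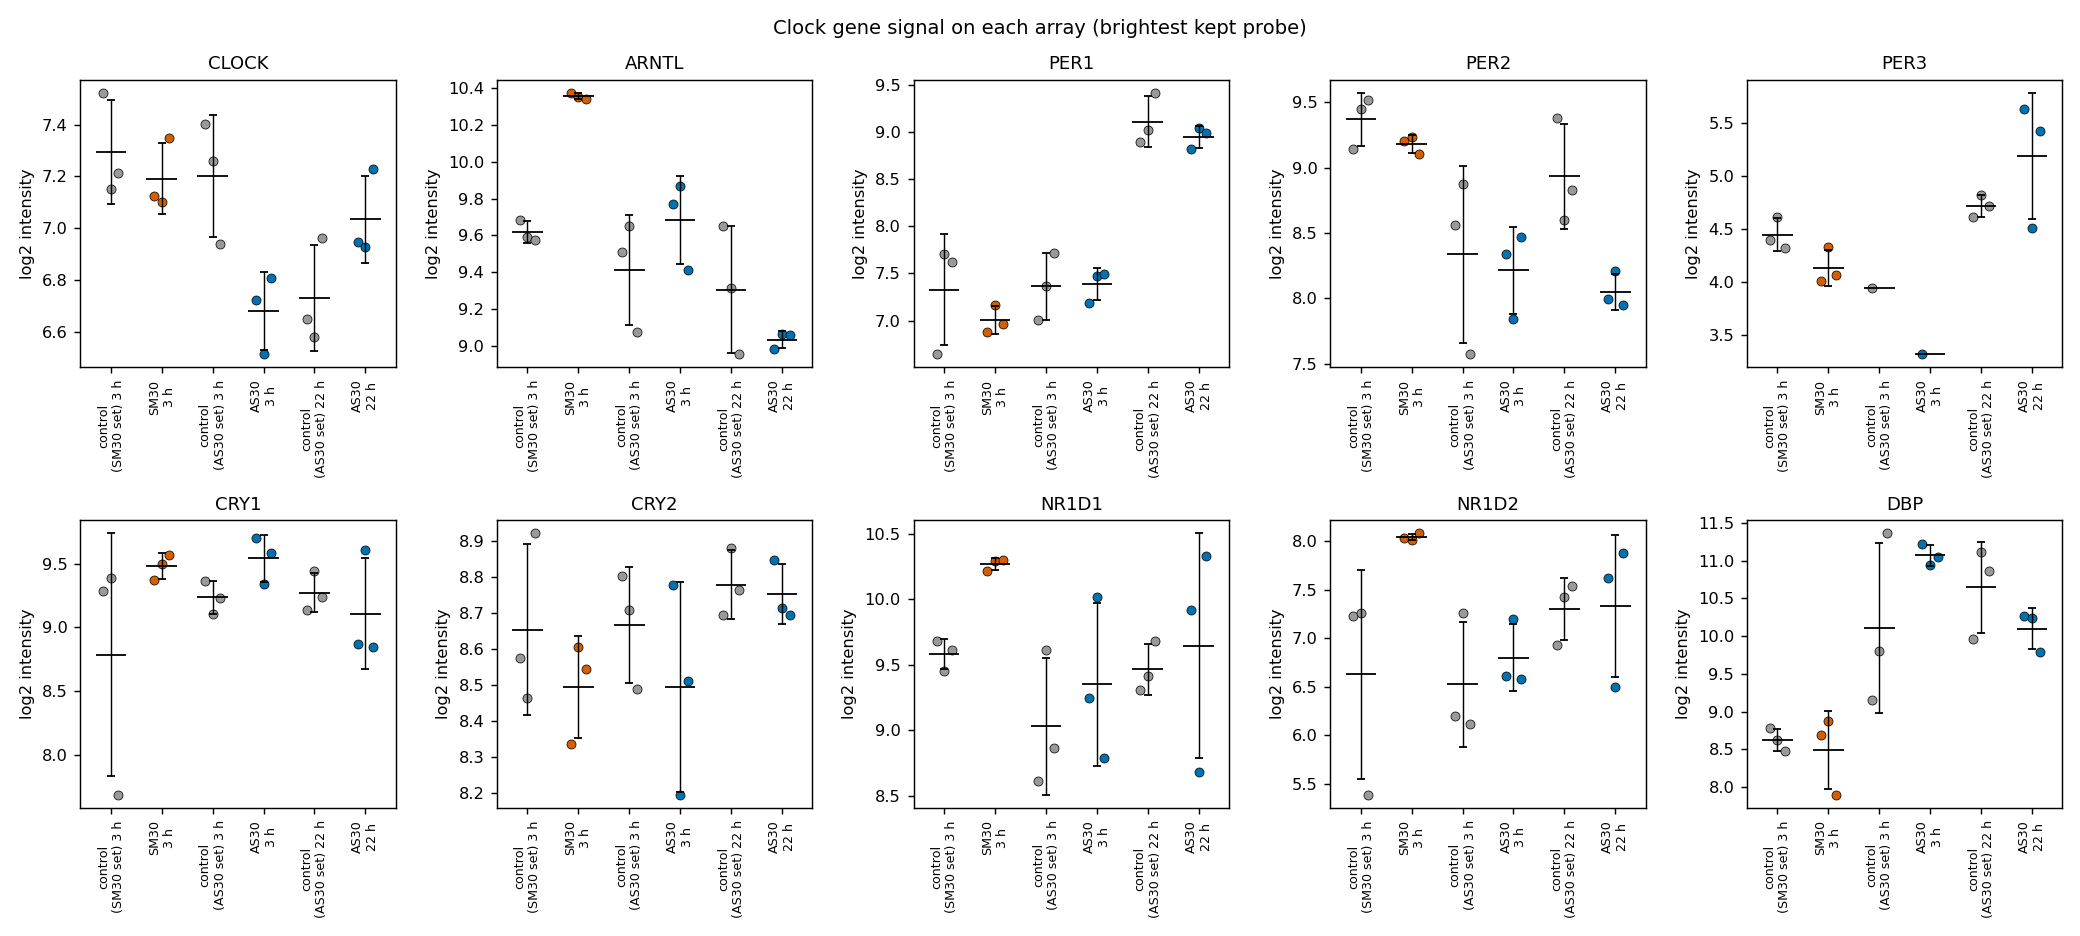
Log2 intensity of the brightest kept probe of each of the 10 clock genes on the 18 arrays, by group. Points are arrays, horizontal lines are group means and bars are SD, with no bar where 1 array was measured. The 22 h arrays of PER1 lie at 8.82 or above and all of its 3 h arrays at 7.72 or below.

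In untreated cells PER1 rose by 1.75 on the log2 scale between 3 h and 22 h (SE 0.25), which is 3.36-fold (limma, adjusted p = 0.0047). It was the 1 clock gene called by its main probe among the 10, while 1.3% of all 28179 probes tested were called. Of the 10 main probes 8 were above 0, with a median of 0.49 against 0.02 over all probes. In AS30-treated cells PER1 rose by 1.56 (SE 0.25), or 2.95-fold (adjusted p = 0.0018). The difference between these changes was -0.19, with a 95% interval from -0.79 to 0.41 (adjusted p = 0.777). On the slide that held both times of untreated cells, the 22 h array exceeded the mean of the 3 h arrays by 1.54. A fit with slide as a fixed block rests on this same array for the untreated change, so it is not a separate check. Its treated change joins the slides of 3 h and 22 h through 1 untreated 22 h array on each. With slide as a fixed block the untreated change was 1.54 (adjusted p = 0.111) and the treated change 1.16 (adjusted p = 0.547), so neither call held in that fit. With normexp background correction both calls held with smaller changes, 0.86 (1.82-fold) and 0.71 (1.63-fold). That correction adds an offset of 50 to every intensity, which by itself shrinks log2 differences, most of all for dim probes.

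In AS30-treated cells 3 of the 10 clock genes were called between 3 h and 22 h, where 12.2% of all 28662 probes were. These were PER1, PER3 and ARNTL. PER3, another period gene, was dim. Its probe A_24_P291231 (hg18 chr1:7827228-7827287, plus strand) was measured on 1 of 3 AS30-treated arrays at 3 h, at 3.32, and at 22 h it read 5.63, 4.51 and 5.43. The 3 h group was well above background on 0 arrays, and the size of the rise was not settled. The fitted log2 difference, which rests on the 1 array measured at 3 h, was 1.87 (SE 0.35, adjusted p = 0.0084), and with all spots kept it was 2.26. In untreated cells PER3 read 3.95 on the 1 array measured at 3 h and 4.61, 4.82 and 4.72 at 22 h, with neither group well above background on any array, and was not called (adjusted p = 0.338). A second PER3 probe, A_23_P201461, was not called in treated cells (adjusted p = 0.374). With normexp background correction the PER3 difference was 0.19 (adjusted p = 0.135), and with slide as a fixed block it was 1.97 (adjusted p = 0.372).

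ARNTL, the partner of CLOCK, has 1 probe, A_23_P162037 (hg18 chr11:13365159-13365218, plus strand). In AS30-treated cells it read 9.77, 9.87 and 9.41 at 3 h and 8.98, 9.06 and 9.06 at 22 h. The groups did not overlap, and ARNTL fell by 0.65 (SE 0.18, adjusted p = 0.028), which is 1.57-fold lower. Untreated cells read 9.51, 9.65 and 9.07 at 3 h and 9.65, 9.31 and 8.96 at 22 h, overlapping sets with a difference of -0.11 (adjusted p = 0.831). The difference between the treated and untreated changes was -0.54 (SE 0.20) and was not called (adjusted p = 0.240). The treated call was lost in 5 of 15 alternatives. With slide as a fixed block the difference was -0.29 (adjusted p = 0.932). It was also lost without AS30 3 h replicate A (-0.61, adjusted p = 0.0756), 3 h replicate B (-0.56, adjusted p = 0.117), 22 h replicate A (-0.62, adjusted p = 0.0804) or 22 h replicate C (-0.66, adjusted p = 0.0708).

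The main probes of the other clock genes were not called between 3 h and 22 h. For CLOCK the differences were -0.47 in untreated cells (adjusted p = 0.167) and 0.35 in AS30-treated cells (adjusted p = 0.160), and the difference between them was 0.82, with an interval from 0.33 to 1.31 (adjusted p = 0.153). PER2 differed by 0.60 and -0.17, CRY1 by 0.04 and -0.43, and CRY2 by 0.11 and 0.26, in untreated and treated cells in that order. The receptors NR1D1 (0.44 and 0.29) and NR1D2 (0.78 and 0.53) were above 0 in both and were not called. A second CRY1 probe, A_24_P407235, read 7.80, 7.78 and 8.53 in untreated cells at 3 h and 6.93, 6.83 and 7.54 at 22 h, a difference of -0.93 (adjusted p = 0.0597). In AS30-treated cells it read 7.41, 6.94 and 7.07 at 3 h and 6.25, 6.53 and 6.59 at 22 h, a difference of -0.68 (adjusted p = 0.0626). Neither pair of groups overlapped.

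**Figure D2:**
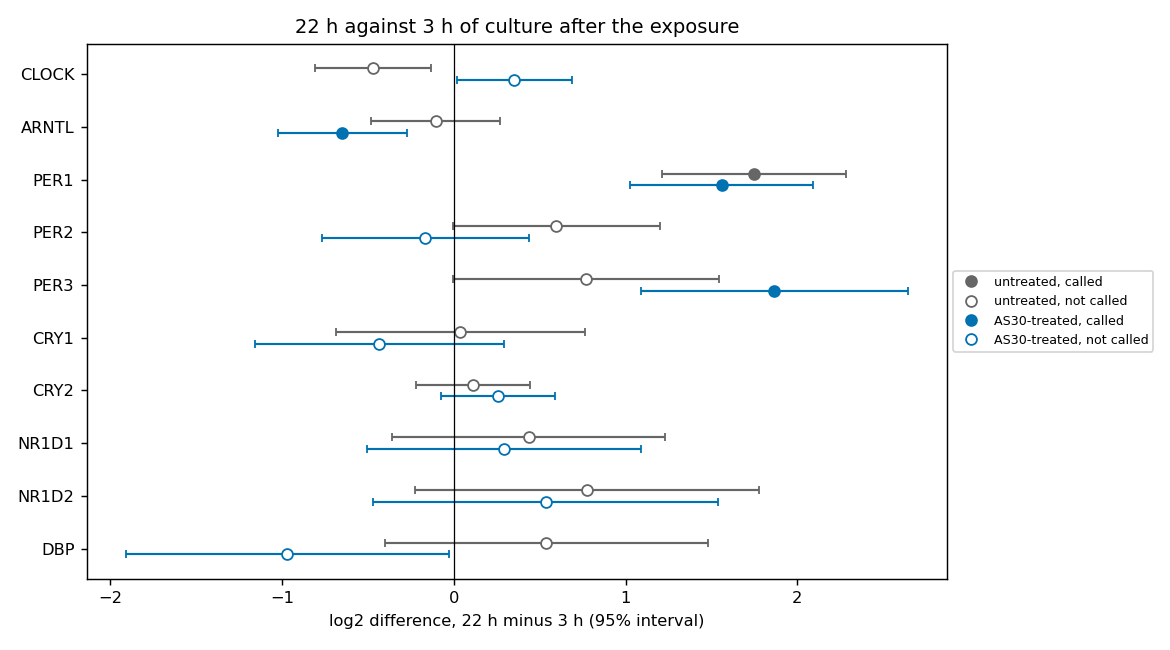
Log2 difference of the 10 clock genes at 22 h minus 3 h, in untreated (grey) and AS30-treated cells (blue), with 95% intervals from limma. Filled circles have an adjusted p under 0.05: PER1 in both, and PER3 and ARNTL in treated cells. PER3 was well above background on 0 arrays at 3 h in the untreated and in the treated cells of the AS30 set.

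For DBP the probes disagreed, and which exon or overlapping transcript each of them reads was not settled with the sources used here. The brighter probe, A_23_P130761 (hg18 chr19:53825728-53825789, minus strand), read 9.16, 9.81 and 11.36 in the AS30-set controls at 3 h and 9.96, 11.11 and 10.87 at 22 h, overlapping sets. In treated cells it read 11.22, 10.95 and 11.05 at 3 h and 10.27, 10.25 and 9.79 at 22 h, all lower at 22 h, with a difference of -0.97 (adjusted p = 0.167). The second probe, A_23_P130753 (hg18 chr19:53828558-53828617, minus strand), read 4.76, 4.93 and 5.15 in controls at 3 h and 6.07, 6.20 and 7.49 at 22 h. It read 4.57, 4.14 and 5.13 in treated cells at 3 h and 7.38, 7.16 and 7.09 at 22 h. By this probe every 22 h array lay above every 3 h array of its set.

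The second DBP probe was called in both comparisons. The untreated 3 h group was well above background on 0 arrays, and the 22 h group on 1. As measured with this background correction the untreated rise was 3.12-fold (log2 difference 1.64, SE 0.33, adjusted p = 0.0245), and its size was not settled. In treated cells the second probe rose by 2.60 (SE 0.33), or 6.05-fold (adjusted p = 0.00042). With slide as a fixed block the values were 1.12 (adjusted p = 0.198) and 1.31 (adjusted p = 0.356). With normexp background correction they were 0.35 (adjusted p = 0.0527) and 0.52 (adjusted p = 0.0015). Without the 3 h control replicate A or B the untreated rise was 1.55 or 1.63, with adjusted p = 0.0734 or 0.0686. Without the 22 h control replicate C the untreated rise was 1.19 and was called (adjusted p = 0.0457). The difference between the treated and untreated changes was 0.96 (adjusted p = 0.301).

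**Figure D3:**
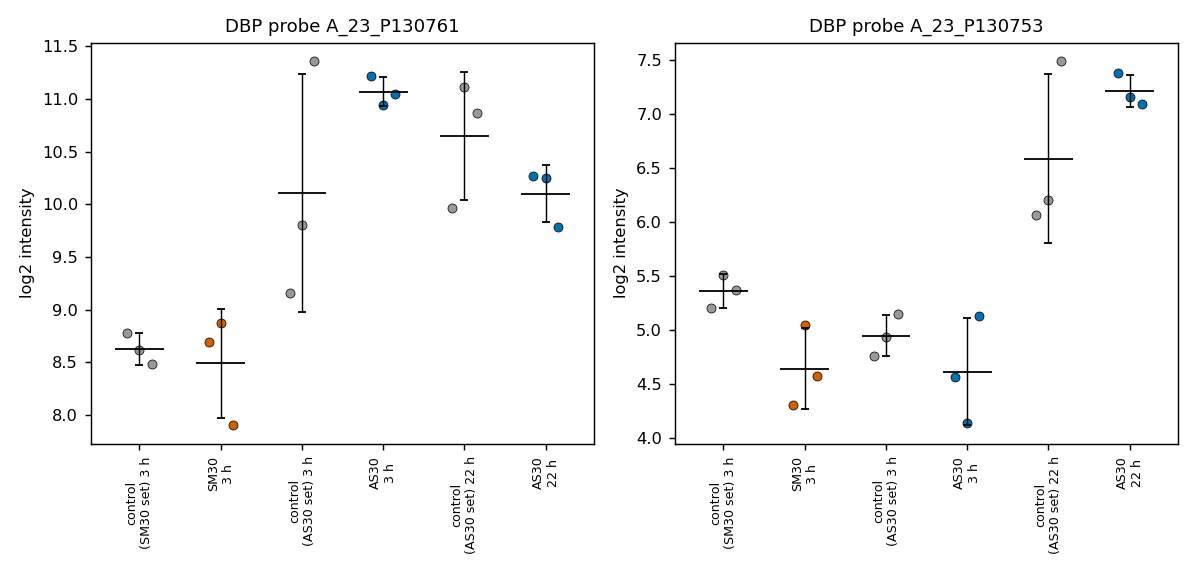
Log2 intensity of the 2 kept DBP probes on the 18 arrays, by group, with group means as lines and SD as bars. The second probe, A_23_P130753, lies at 6.07 or above at 22 h and at 5.51 or below at 3 h, while A_23_P130761 shows no such separation and lies lowest in the SM30 set.

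Between the control sets at 3 h, 2 of the 10 clock genes were called, where 26.8% of all probes were. PER2 was higher in the SM30-set controls by 1.03 (adjusted p = 0.0153) and the brighter DBP probe lower by 1.48 (log2 difference -1.48, adjusted p = 0.0232). Without AS30-set control C the values were 0.65 (adjusted p = 0.0559) and -0.86 (adjusted p = 0.0865), without SM30-set control C 0.96 (adjusted p = 0.0526) and -1.41 (adjusted p = 0.0673), and DBP was also lost without SM30-set control B (adjusted p = 0.0588). Among the main probes positive on all 18 arrays that DBP probe had the widest range of group means, 2.58, while the second DBP probe spanned 2.60. The values of the brighter probe moved with A_32_P9707 (r = 0.989), RRP7BP (r = 0.987) and MRGPRF (r = 0.984) over the 18 arrays. PER1 moved most closely with CDIN1 (r = 0.943), ZNF692 (r = 0.935) and SLC25A41 (r = 0.934). These correlations describe 18 arrays that share groups, sets and slides, over 23030 probes positive on all 18, and carry no test.

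Over the 3 comparisons of treated cells with their own controls, 1 clock gene was called. After SM30 at 3 h ARNTL was the 1 clock gene called of 10, where 7.49% of 28664 probes were. It read 10.38, 10.35 and 10.34 with SM30 and 9.68, 9.59 and 9.58 in controls, and rose by 0.74 (SE 0.14), or 1.67-fold (adjusted p = 0.0213). All 3 treated arrays lay above all 3 controls. On the slide that held both groups the treated array exceeded the control mean by 0.76. A fit with slide as a fixed block rests on that same treated array. The call was lost with slide as a fixed block (0.76, adjusted p = 0.140) and without SM30 pair A, B or C (0.76, 0.73 and 0.72, adjusted p = 0.0856, 0.122 and 0.126).

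The REV-ERB genes, which repress ARNTL, also read higher with SM30 but were not called. NR1D1 by probe A_23_P420873 (hg18 chr17:35502774-35502833, minus strand) read 10.21, 10.29 and 10.30 with SM30 and 9.68, 9.46 and 9.61 in controls (log2 ratio 0.69, adjusted p = 0.149), and its second probe differed by 0.63 (adjusted p = 0.143). NR1D2 read 8.04, 8.02 and 8.08 with SM30 and 7.23, 7.26 and 5.39 in controls (1.42, adjusted p = 0.0739), and its second probe differed by 0.61 (adjusted p = 0.290). The groups did not overlap for any of these 4 probes. Of all 18 clock gene probes 7 did not overlap in this comparison, as 43% of all probes did not. Besides these 4 and ARNTL they were the second probes of PER2 and DBP. PER2 by A_23_P411162 read 5.53, 5.96 and 5.66 with SM30 and 5.18, 4.87 and 5.07 in controls. DBP by A_23_P130753 was lower, at 4.31, 5.05 and 4.58 with SM30 and 5.20, 5.51 and 5.37 in controls. The groups overlapped for the main probes of PER2 and DBP. SM30-set control C was the low array for the main NR1D2 probe, and for the main CRY1 probe as well, at 7.69 beside 9.28 and 9.38.

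THRA, the thyroid hormone receptor gene that overlaps NR1D1 on the opposite strand, was read by a probe (hg18 chr17:35503534-35503593, plus strand) that lies between the NR1D1 probes. It was not called in any comparison, and its log2 ratio with SM30 was -0.29 (adjusted p = 0.243).

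After AS30 at 3 h 0 of the 9 clock genes that could be tested were called by limma, where 2.52% of 28596 probes were, and 1 had an unadjusted p under 0.05, as had 24.4% of probes. PER3 could not be tested because no pair had both arrays measured by its main probe. The main CLOCK probe, A_24_P166168, read 6.72, 6.52 and 6.81 with AS30 and 7.40, 7.26 and 6.94 in controls, a log2 ratio of -0.52 (adjusted p = 0.0993). The second CRY1 probe read 7.41, 6.94 and 7.07 with AS30 and 7.80, 7.78 and 8.53 in controls, a log2 ratio of -0.90 (adjusted p = 0.0705). Neither pair of groups overlapped, and these were the 2 of 14 clock gene probes apart, where 23.8% of all probes were. The brighter main CRY1 probe, A_23_P36665, went the other way, with log2 ratios of 0.34, 0.23 and 0.35 in pairs A, B and C. It was not called. The ratio of PER1 was 0.03, with an interval from -0.40 to 0.45.

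After AS30 at 22 h 0 of 10 clock genes were called by limma, where 3.58% of 28155 probes were, and 1 had an unadjusted p under 0.05, as had 22.9% of probes. PER2, the repressor with the lowest ratio, read between 7.95 and 8.21 with AS30 and 9.38, 8.60 and 8.83 in controls, with no overlap (log2 ratio -0.89, adjusted p = 0.156). Its second probe had a ratio of -0.35 (adjusted p = 0.529). The main PER2 probe was 1 of 3 among 16 clock gene probes whose groups did not overlap, as 23.9% of all probes did not. The second CRY1 probe was lower, at 6.25, 6.53 and 6.59 with AS30 and 6.93, 6.83 and 7.54 in controls. The second CLOCK probe, A_23_P419038, was higher, at 6.99, 6.94 and 6.68 with AS30 and 6.54, 6.51 and 6.41 in controls. PER1 had a ratio of -0.16 (adjusted p = 0.646).

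The responses to the NPs were also compared with each other. The SM30 response minus the AS30 response at 3 h was called for 0 of 9 clock genes by limma, where 0.014% of probes were, and 1 had an unadjusted p under 0.05, as had 14.6% of probes. For ARNTL it was 0.47, with an interval from 0.01 to 0.93 (adjusted p = 0.339). The SM30 and AS30 experiments used separate controls. The AS30 response at 22 h minus that at 3 h was called for 0 of 9, where 0.0285% of probes were, and 3 had an unadjusted p under 0.05, as had 16.9% of probes.

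**Figure D4:**
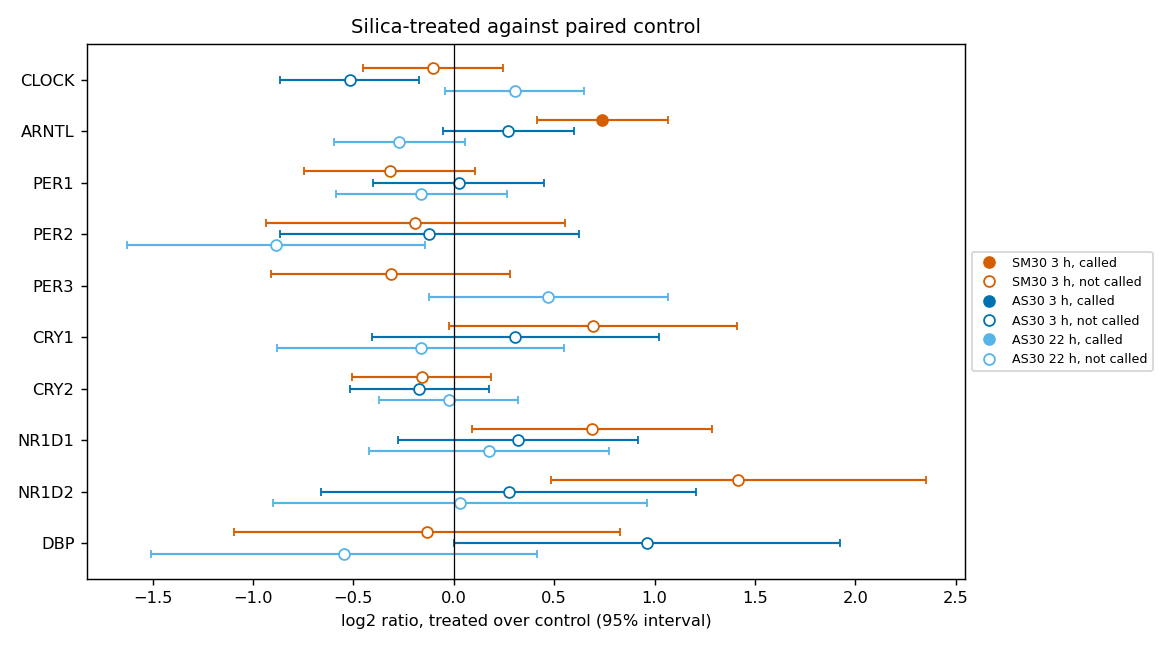
Log2 ratio of treated over paired control for the 10 clock genes after SM30 at 3 h (orange), AS30 at 3 h (dark blue) and AS30 at 22 h (light blue), with 95% intervals from limma. The 1 filled circle is ARNTL after SM30, at 0.74. PER3 has no AS30 3 h value, and its controls at 22 h were well above background on 0 arrays.

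Of 29 accessory clock genes, chosen for their place in the loop with earlier results of these data known, 24 were kept. After SM30 at 3 h 6 were called higher and 1 lower, where 4.35% of all probes were called higher and 3.13% lower. TEF, a D-box factor of the same family as DBP, read 7.31, 7.76 and 7.81 with SM30 and 5.12, 4.81 and 5.24 in controls, and rose 5.93-fold (log2 ratio 2.57, adjusted p = 0.0050). NFIL3, a repressor that competes at D-boxes, rose 2.14-fold after SM30 (adjusted p = 0.0080) and 2.14-fold after AS30 at 3 h (adjusted p = 0.0188). The kinase genes CSNK1E and GSK3B rose by 0.73 and 0.55 with SM30, and the deacetylase gene SIRT1 by 1.13. The cell cycle kinase gene WEE1 rose by 0.67. PPARGC1A, a coactivator gene, fell by 0.89. Over the alternatives TEF was called in 16 of 17 with log2 ratios from 0.62 (normexp background correction) to 2.76, SIRT1 in 15 of 18, NFIL3, CSNK1E and WEE1 each in 14 of 18, GSK3B in 9 of 18 and PPARGC1A in 9 of 17. The SM30 calls of NFIL3, CSNK1E, WEE1, GSK3B and PPARGC1A were lost without any 1 of the SM30 pairs, with adjusted p from 0.0526 to 0.0702 for NFIL3, and that of SIRT1 without pair B or C (adjusted p = 0.0543 and 0.0614). The AS30 call of NFIL3 was lost without pair A or B (adjusted p = 0.0735 and 0.0959).

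NFIL3 was the 1 accessory gene of 24 called after AS30 at 3 h, where 2.52% of all probes were. After AS30 at 22 h 0 of 24 were called by limma, where 3.58% of all probes were, and the ratio of NAMPT, a gene of NAD synthesis, was 0.73. Between 3 h and 22 h 0 of 24 were called in untreated cells, where 1.3% of all probes were and the difference of KLF10 was -0.52. In the AS30-set controls TEF was not well above background at either time, nor was PPARGC1A at 22 h. In the SM30-set controls TEF was well above background on 3 arrays. In AS30-treated cells 4 were called lower at 22 h, as were 6% of all probes. Among them SIRT1 fell by 0.92, WEE1 by 0.46 and CSNK1E by 0.40. These were called in 14, 11 and 5 of 15 alternatives, and CSNK1E was lost without any 1 of the 6 arrays compared. WEE1 was lost without 22 h replicate A or 3 h replicate B or C, with adjusted p from 0.0510 to 0.0958. The SM30 and AS30 responses at 3 h did not give a called difference for any of the 24. The list's median in SM30-treated cells was 0.24, against -0.05 over all probes.

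The last lists hold genes that respond to signals known to induce PER1. They are 8 glucocorticoid-responsive genes and 9 immediate-early genes of serum and cyclic AMP, PER1 included in each. These lists too were chosen with earlier results of these data known. In untreated cells between 3 h and 22 h, where 1.3% of all probes were called, PER1 was the 1 glucocorticoid-list gene called. Of the immediate-early list PER1 and EGR1 were called, and EGR1, a serum-induced transcription factor, rose by 2.15 (SE 0.40, adjusted p = 0.0199). EGR1 read 10.61, 10.21 and 10.45 in controls at 3 h and 12.60, 12.08 and 13.04 at 22 h. The SM30-set controls at 3 h read 12.51, 12.49 and 12.73, as high as the 22 h controls, and exceeded the 3 h controls of the AS30 set by 2.16 (adjusted p = 0.0023). With the 3 h controls of both sets as reference its change was 1.07 (adjusted p = 0.0494). The call between times was lost in 5 of 15 alternatives, among them without 3 h control B (2.04, adjusted p = 0.0697) and without 22 h control C (1.92, adjusted p = 0.0658). In AS30-treated cells, where 12.2% of all probes were called, PER1 was the 1 gene called of the 8 on the glucocorticoid list. CREM, a cyclic AMP-responsive factor, fell there by 1.21 and JUNB by 0.93.

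With SM30 at 3 h 4 of 8 glucocorticoid-list genes were called, all higher, where 4.35% of all probes were. SGK1 rose by 0.82, KLF9 by 1.44 and TSC22D3 by 1.09. CRISPLD2 rose by 1.15 (adjusted p = 0.0261), or 2.21-fold as measured, with its controls well above background on 0 arrays. With normexp background correction the CRISPLD2 rise was 1.09-fold (adjusted p = 0.271). TSC22D3 was lower by 1.27 in the SM30-set than in the AS30-set controls at 3 h (log2 difference -1.27). Over the alternatives KLF9 was called in 14 of 18, SGK1 in 8 of 18, TSC22D3 in 7 of 18 and CRISPLD2 in 9 of 17, and all 4 were lost without any 1 of the SM30 pairs. KLF9 was the 1 called after AS30 at 3 h, at 1.39, where 2.52% of all probes were. CREM rose after SM30 (1.93) and after AS30 at 3 h (1.33), and NR4A2 by 1.25 and 1.60. The SM30 call of NR4A2 was lost without any 1 of the SM30 pairs, and the AS30 calls of KLF9 and NR4A2 without AS30 pair A or B. That of KLF9 was also lost without SM30 pair A or B (adjusted p = 0.0572 and 0.0571). EGR1 fell by 1.58 after SM30 at 3 h and by 1.66 after AS30 at 22 h, each called in 12 of 17 alternatives, and the calls were lost without SM30 pair B or C and without AS30 22 h pair A or SM30 pair B in that order. PER1, a member of both lists, was not called in any of the 3 comparisons with controls, with ratios of -0.32, 0.03 and -0.16.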

How the data were processed

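RNA of A549 cells was labelled with Cy3 and hybridised to 18 one-colour Agilent arrays. The authors deposited a scanner file per array from Agilent Feature Extraction 10.5.1.1, whose spot intensity values are on a linear scale, and a table of quantile-normalized intensities that was used only as an alternative. Positions are on hg18, as in the scanner files.

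From the deposited intensity, the log2 of the processed signal was quantile-normalized with R 4.3.3 and limma 3.58.1. Spots not positive and significant, and outlier spots, were set to missing, and probes with over 33% missing were removed, which left 28665. "Well above background" is the software's flag. The brightest kept probe stands for a gene. Precision is limited by the 3 arrays per group, which the study's methods call biological replicates.

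Treated arrays were divided by the control of the same letter, as the study's methods divide by the corresponding control, and the 9 log2 ratios were fitted as 3 classes. Times and control sets were compared in a fit of 18 arrays as 6 groups. Both used limma with Benjamini-Hochberg adjustment over all probes tested, and "called" means an adjusted p under 0.05. The fits were tested on simulated data with independent noise and no slide effect. Of log2 changes of 1, 47% were called for SM30 at 3 h and 66% between times in untreated cells. Of changes of 2, 89% and 92% were. Same-letter treated and control arrays correlated from -0.09 to 0.48 in their deviations, and 5 of 9 pairs were under a limit chosen here for a shared source. All 3 SM30 pairs were among them, at -0.01 to 0.09, so a shared source was not shown for those pairs.

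The members and lists were chosen with earlier results of these data known. Named were all members, list genes called in a comparison or else the extremes in each direction, THRA, and the nearest genes of the members with the widest range. Values of some list genes are not reported here, though the counts over the list include them, and extremes against a group not above background are left out.

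Where a group was well above background on no array, a fold compared the brighter group's mean with a limit for the dim group. Per dim array this limit was the higher of the lowest signal well above background and the probe's own signal. For the DBP and CRISPLD2 folds given it was the probe's own signal, so these are values as measured and not bounds. Alternatives changed scaling, background correction, filters, outlier spots, slide, replicate block and arrays left out. The normexp alternative used an offset of 50, so its changes are smaller in part by construction.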

Additional observations from a re-analysis of the deposited data

How the results depend on the processing

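Over the alternatives run, the main probes of the 10 clock genes gave 1288 values, of which 1259 kept their direction where called and their side of the threshold, 19 lost the call, 10 gained one and 0 called values changed sign. Another 61 values that were not called changed sign. With slide as a fixed block 0 clock genes were called after SM30 at 3 h or between times in untreated or AS30-treated cells. Of all probes 1.16%, 0.726% and 0.193% were called in that order, against 7.49%, 1.3% and 12.2% without the block. In that fit each comparison rests on the few arrays that share a slide. Only 1 SM30 array shared a slide with its controls, and only 1 control at 22 h with the 3 h controls. The AS30-treated arrays of 3 h and 22 h were linked only through 1 control at 22 h on each slide. Whether the lost calls come from slides or from this loss of arrays was not tested. With slide as a random block 1 was called after AS30 at 3 h (CLOCK), where 13.7% of all probes were. Normexp background correction gave 2 after SM30 (ARNTL and NR1D2), where 7.94% of all probes were called, and 1 between the control sets (PER2), where 25.1% were. With the 3 h controls of both sets as reference, 3 were called between times in untreated cells (PER1, CLOCK and DBP), and 17.6% of all probes, against 1.3% without that change. Leaving out 1 array or pair at a time gave from 0 to 2 after SM30 at 3 h, 0 to 2 after AS30 at 3 h, 0 to 1 after AS30 at 22 h, 1 to 2 between times in untreated cells, 2 to 3 in AS30-treated cells and 0 to 2 between the control sets. Of all probes, 1.01% to 9.49% were called after SM30, 0.285% to 10.7% after AS30 at 3 h and 0.00716% to 4.84% at 22 h. Between times the shares were 0.694% to 5.54% in untreated and 5.06% to 12.6% in treated cells, and 18.3% to 27% between control sets. Without pair C of AS30 at 3 h, CLOCK and DBP were called there and 10.7% of all probes, against 2.52% with it, and without pair B of AS30 at 22 h PER3 was, and 4.29% of all probes. The 2 calls between the control sets were both lost without SM30-set control C or AS30-set control C.

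With the replicate letter as a replicate block, 1 clock gene was called between times in untreated cells and 3 in AS30-treated cells, as without it. Of all probes 0.852% and 11.7% were called there. With no replicate block 1 clock gene was called after SM30 at 3 h and 0 after AS30 at 3 h or 22 h. The shares of all probes were 8.78%, 4.59% and 4.99% in that order. Among list genes the block turned 1 value: PPARGC1A, measured on 1 of 3 AS30-treated arrays at 22 h, differed by 0.36 between times (adjusted p = 0.897) and by -1.25 with the block (adjusted p = 0.0258), and the cause was not tested. The comparison of control sets could not be fitted with slide as a fixed block, since the sets share no slide, or with letters blocked within each set. With a replicate block whose letters were shared by both sets, an alternative chosen after seeing the data, 2 clock genes were called there (PER2 and DBP), as without it. Of all probes 27.5% were called.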
